A study of Mus musculus with 6 samples.

Results

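Steroid receptors act on genes through partner proteins, and 8 genes for such partners were examined here in the mouse uterus with and without Indian hedgehog (Ihh). They were chosen by name: the p160 co-activators Ncoa1, Ncoa2 and Ncoa3, the co-repressors Ncor1 and Nrip1, the membrane progesterone receptor components Pgrmc1 and Pgrmc2, and the HSP90 co-chaperone Fkbp4. Every probe set (a group of short probes that reports 1 transcript region) whose annotation gave exactly 1 of these symbols was taken. This gave 21 of the 45101 probe sets on the array, for 7 of the 8 genes. No probe set carried the symbol Ncor1 in the annotation used, so Ncor1 was not analysed here.

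Total RNA of uterine tissue was hybridised to 1 Affymetrix array per sample, with 3 samples in each of both groups, all from day -1 of an artificially induced decidual response, in which a primed uterus is stimulated to form decidua without an embryo. Control mice carried floxed Ihh alleles (Ihhf/f), and Ihh-ablated mice (PRcre/+Ihhf/f, written Ihhd/d) also carried a Cre recombinase driven from the progesterone receptor locus. The labels list the Cre allele for the ablated group alone, so its own effect and that of Ihh loss cannot be told apart. Age, hormone doses and whether each sample is 1 mouse are not given in the labels, so the spread behind each p-value may be technical rather than that between animals. The source labels of both groups name a Smoothened allele instead, against the titles and genotypes, and were not used.

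A steroid receptor without hormone is held ready to bind by HSP90 and its co-chaperones, among them FKBP52, the product of Fkbp4. Once bound to hormone it recruits p160 co-activators, which bring histone acetyltransferases to the gene. Co-repressors such as NCOR1 and RIP140 (the product of Nrip1) bring histone deacetylases instead. In the mouse uterus, Fkbp4 and Ncoa2 are known to be needed for progesterone responses that precede implantation and decidualization, and Nrip1 is known as a gene that oestrogen induces and whose product in turn limits oestrogen receptor activity. PGRMC1 and PGRMC2 are haem-binding membrane proteins that have been linked to rapid progesterone actions.

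Among these genes Nrip1 was the one that differed past the test: its brightest probe set rose 1.51-fold in Ihh-ablated uteri (limma adjusted p = 0.0258). The other 18 tested probe sets of the 7 genes did not pass. Brightest means the highest mean log2 intensity over the arrays of both groups, so the Ihh-ablated values enter that ranking. By control means alone, Nrip1 probe set 1449089_at was slightly brighter than the one that rose (673.6 against 665.6). Probe set 1449089_at did not pass (log2 0.30, limma adjusted p = 0.195). The test was limma's moderated test on log2 intensity, with p-values adjusted over all 33777 tested probe sets, and a probe set was called at an adjusted p under 0.05. Over the whole array 2.14% of tested probe sets were called, 1.03% higher and 1.11% lower in Ihh-ablated uteri, and 1 of 19 member probe sets was. In 7 of the 19 (36.8%) the groups did not overlap, 5 with every Ihh-ablated array above every control array and 2 below, against 31.0% of all tested probe sets (13.1% above and 17.9% below), a share near the background. The median log2 difference (Ihh-ablated minus control) was 0.12 over the 19 probe sets and -0.04 over all tested ones. The remaining 2 probe sets, the dimmest of Ncoa1 and of Fkbp4, fell below the filter on dim probe sets and were not tested.

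**Figure D1:**
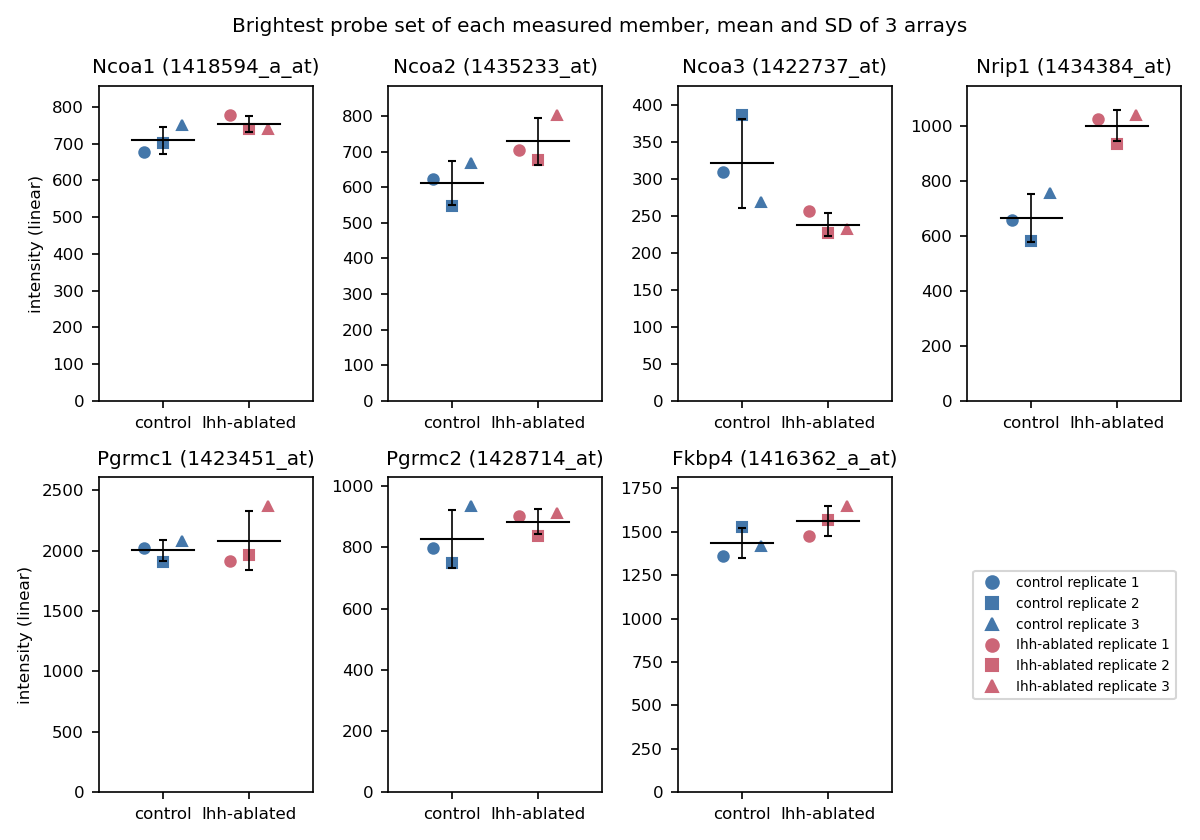
Intensity (linear scale, from 0) of the brightest probe set of each of the 7 measured genes, 1 point per array, with the horizontal bar and whiskers giving the mean and SD of 3 arrays. Nrip1 shows the widest gap between groups, 581 to 756 in the controls and 938 to 1043 in Ihh-ablated uteri, while Ncoa1, Pgrmc1, Pgrmc2 and Fkbp4 overlap.

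The labels were checked on Hedgehog transcripts and tissue markers. The Ihh probe set differed by -0.43 on the log2 scale (limma adjusted p = 0.164), and the labels do not say whether it lies in the deleted part. The Hedgehog target Gli1 fell by 2.53 and the receptor Ptch1 by 1.65 (limma adjusted p = 0.000492 and 0.00146). Summed uterine markers (Pgr, Esr1, Hoxa10, Hoxa11 and Emx2) read 12268 to 12900 in the controls and 13656 to 14280 in the ablated arrays. By group mean, Pgr, Esr1 and Emx2 were higher in the ablated arrays, whereas Hoxa10 and Hoxa11 were lower. Other tissues were visible in 2 arrays: striated muscle markers summed to 5412 in control replicate 3 against at most 748 elsewhere, and pancreas markers to 41816 in Ihh-ablated replicate 2 against at most 1508 elsewhere. Control replicate 2 had the highest median intensity (142.5, against 121.4 to 125.8), and it was the lowest or highest of the 6 arrays in 12 of the 19 member probe sets. The same count over all tested probe sets is not given, so it cannot be read as particular to the members. The ratio of 3' to 5' Gapdh control probe sets, a sign of RNA integrity, was 1.16, 1.12 and 1.29 in the controls and 1.07, 1.09 and 1.08 in the ablated arrays, without overlap, whereas that of beta-actin (1.69 to 1.93 and 1.67 to 1.76) overlapped. The part of RNA integrity in the Nrip1 difference, in those of the other members and in the ratios between probe sets of a gene was not tested.

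Nrip1 is the member on which the results turn, and RefSeq lists 2 transcription starts for it. Their promoters, 250 bases before to 50 bases after each start, are printed as the sequence around the starts of the one called gene. Both lie on the minus strand of chromosome 16 in GRCm38.p6, the upstream one at chr16:76373778-76374077 and the downstream one at chr16:76373000-76373299. Capitals mark the oestrogen response element half-site GGTCA and the GC box GGGCGG, on either strand. Overlapping GC boxes run together.
Nrip1 upstream promoter: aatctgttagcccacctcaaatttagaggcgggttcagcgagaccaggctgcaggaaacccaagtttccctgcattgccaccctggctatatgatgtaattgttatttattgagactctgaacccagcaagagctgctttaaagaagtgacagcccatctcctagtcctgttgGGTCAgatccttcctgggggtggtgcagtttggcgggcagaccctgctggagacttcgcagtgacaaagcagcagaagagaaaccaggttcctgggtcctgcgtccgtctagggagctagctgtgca
Nrip1 downstream promoter: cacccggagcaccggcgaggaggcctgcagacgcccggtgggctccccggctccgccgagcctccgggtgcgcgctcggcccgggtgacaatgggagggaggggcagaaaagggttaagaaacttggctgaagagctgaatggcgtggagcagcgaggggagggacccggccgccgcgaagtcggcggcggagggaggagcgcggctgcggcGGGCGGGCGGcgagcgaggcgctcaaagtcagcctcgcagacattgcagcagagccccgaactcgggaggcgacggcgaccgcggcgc

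The upstream promoter holds 1 GGTCA and 0 GC boxes at 52.7% G and C, and the downstream one holds 0 GGTCA and 2 overlapping GC boxes at 73.3% G and C. GGTCA occurs in 40.5% and GGGCGG in 35.7% of the 32851 mouse promoters of this length in the table, so neither match sets Nrip1 apart. Neither promoter holds the full palindromic oestrogen response element (0.07% of all promoters), the GLI site GACCACCCA (0.253%) or the progesterone response half-site AGAACA (19%), each searched on both strands. Promoters were listed for 6 of the 8 genes. GGTCA was in none of those of Ncoa1, Pgrmc1, Pgrmc2, Fkbp4 and Ncor1, and GC boxes numbered 7 for Ncoa1, 5 for Pgrmc1, 3 for Pgrmc2 and 3 for Fkbp4. A match is a run of letters and does not show that a factor binds there.

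The brightest Nrip1 probe set (1434384_at) read 659.6, 581 and 756 in control replicates 1 to 3 and 1026, 938 and 1043 in Ihh-ablated replicates 1 to 3. Every Ihh-ablated array lay above every control array, and the gap between the groups was wider than the range within either. The means were 665.6 ± 87.4 and 1002 ± 56.5 (SD, n = 3 each), a log2 difference of 0.60 (SE 0.11, 95% interval 0.36 to 0.84, limma adjusted p = 0.0258). Because the groups did not overlap, leaving out arrays could not reverse the direction. The call depended on which arrays were used, and fewer arrays also leave fewer residual degrees of freedom. It was lost without control replicate 1 (log2 0.59, adjusted p = 0.104), control replicate 2 (0.50, 0.0667), Ihh-ablated replicate 1 (0.58, 0.109), Ihh-ablated replicate 2 (0.64, 0.0503) or Ihh-ablated replicate 3 (0.57, 0.107). It was also lost with median-centred arrays (0.69, 0.0570) and without an intensity trend in the fit (0.60, 0.0686). It was kept without control replicate 3 (0.69, 0.00552) and without both arrays that carried muscle or pancreas transcripts (0.74, 0.00677).

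The 5 other Nrip1 probe sets did not pass the test, and 4 of them had a difference above 0. Probe set 1418469_at read 240.6, 224 and 223 in the controls and 369, 327 and 260.3 in the ablated arrays, again with no overlap (log2 0.46, 95% interval 0.15 to 0.77, limma adjusted p = 0.114). Probe set 1447211_at read 132, 153 and 137 in the controls and 186, 168 and 192 in the ablated arrays, without overlap (log2 0.38, limma adjusted p = 0.128). Probe set 1449089_at read 652, 749 and 620.3 in the controls and 957, 838 and 704 in the ablated arrays, so control replicate 2 lay above the lowest Ihh-ablated array (log2 0.30, adjusted p = 0.195 by limma). These 3 and the called probe set thus differed in the same direction by 0.30 to 0.60.

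The remaining pair of Nrip1 probe sets, which the annotation ties to 1 shared sequence record, did not follow. Probe set 1454295_at read 273, 178 and 202 in the controls and 225, 175 and 301 in the ablated arrays, overlapping widely (log2 0.09, 95% interval -0.40 to 0.58, limma adjusted p = 0.813). The dim probe set 1432603_at read 85.7, 140.4 and 79.8 in the controls and 87.0, 82.0 and 72.9 in the ablated arrays (log2 -0.29, adjusted p = 0.402 by limma). Control replicate 2 alone stood apart there. Within each array, the log2 ratio of the called probe set over 1432603_at was 2.94, 2.05 and 3.24 in the controls and 3.56, 3.52 and 3.84 in ablated uteri, higher in every ablated array. Its numerator was already called as higher, so the ratio adds no separate support, and control replicate 2 gave the lowest value. The difference in that ratio was 0.89 (exact two-sided permutation p = 0.1, the smallest that 3 against 3 arrays allow). Of 12 such within-gene pairs over all members, each setting the brightest probe set against another, 3 reached that smallest p, and their Benjamini-Hochberg adjusted value was 0.4.

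**Figure D2:**
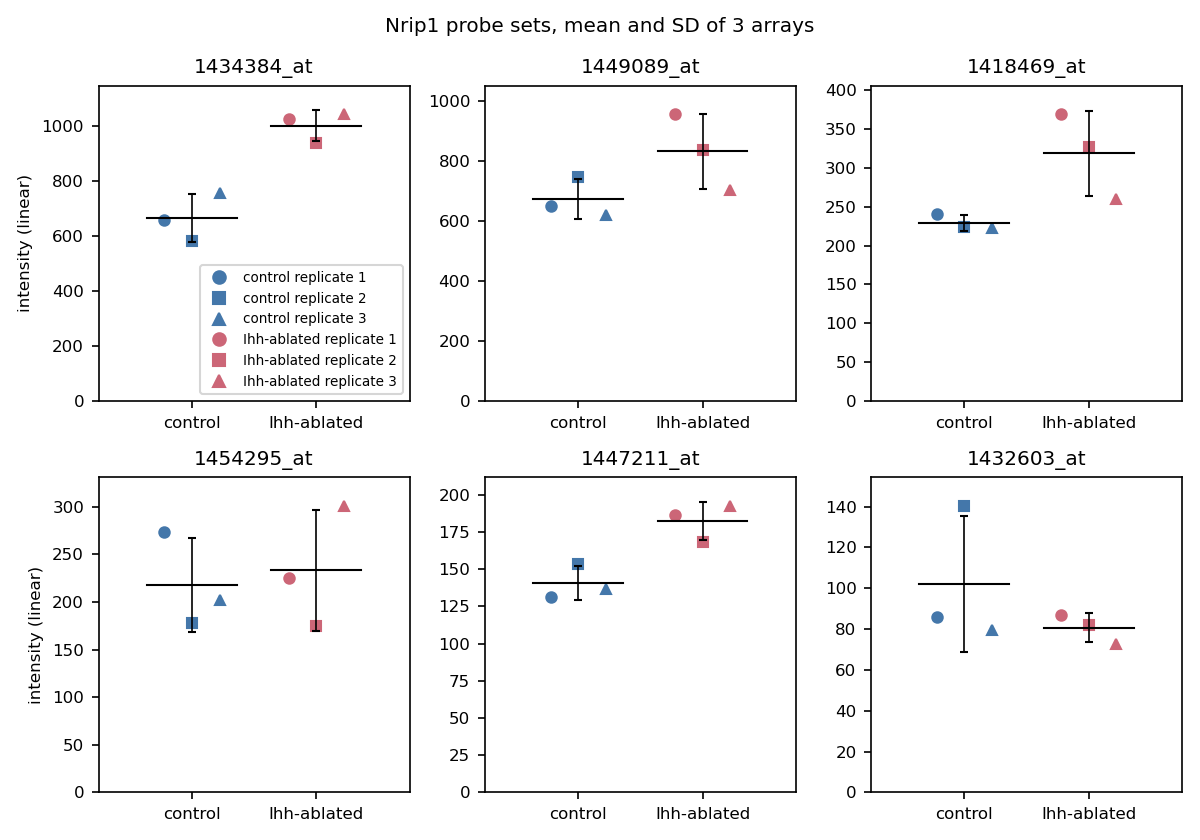
Intensity (linear scale, from 0) of the 6 Nrip1 probe sets, 1 point per array, with mean and SD of 3 arrays. Probe sets 1434384_at, 1418469_at and 1447211_at show no overlap between groups, whereas 1454295_at overlaps widely and 1432603_at has a single high array, control replicate 2, at 140.4.

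Adipocytes also express Nrip1, and the arrays also differed in adipocyte transcripts. The summed intensity of 6 measured adipocyte markers of 8 listed (Adipoq, Cidec, Fabp4, Lep, Retn and Lpl) was 1945, 5121 and 9198 in control replicates 1 to 3 and 7060, 11324 and 18828 in Ihh-ablated replicates 1 to 3. Lep differed by -0.01 on the log2 scale and the others by 1.17 to 1.61, and 0 of the 6 passed the test. The lowest single value was 95.2, for Cidec in control replicate 1, below that array's median intensity of 125.8. With the mean of the 6 markers as a covariate, the Nrip1 difference was 0.54 and no longer passed (limma adjusted p = 0.315), and 23 of all tested probe sets were called in place of 724. Epithelial markers summed to 8079 to 11532 in the controls and 11078 to 12316 in the ablated arrays, and their part in the Nrip1 difference was not tested. In RNA of a whole organ, more cells of a type and more RNA per cell cannot be told apart.

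**Figure D3:**
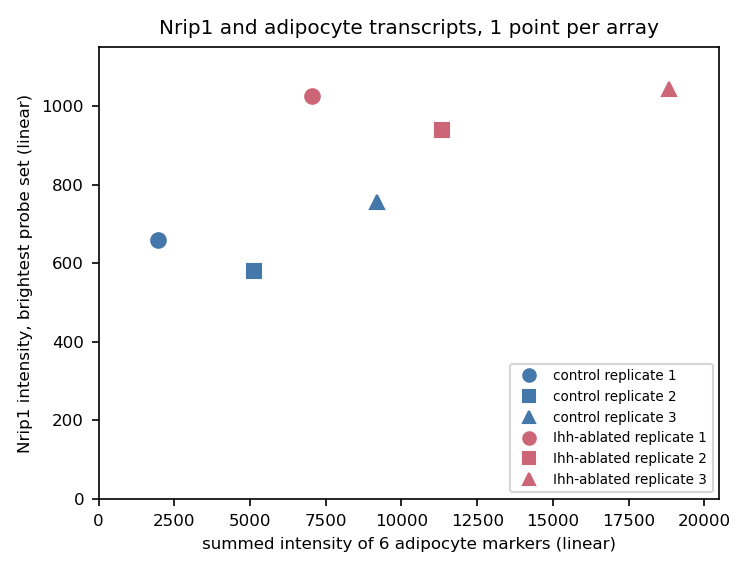
Intensity of the brightest Nrip1 probe set (vertical axis) against the summed intensity of 6 adipocyte markers (horizontal axis), both linear, 1 point per array. The 3 Ihh-ablated arrays lie at 938 to 1043 for Nrip1 over adipocyte sums of 7060 to 18828, and the 3 control arrays at 581 to 756 over sums of 1945 to 9198.

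The p160 co-activators, which bind the hormone-bound receptor directly, did not pass the test in any of their 8 tested probe sets. Ncoa1 (SRC-1) read 676, 701 and 749 in the controls and 779, 739.6 and 740.5 in the ablated arrays by its brightest probe set (1418594_a_at), overlapping between groups. The difference was 0.09 (95% interval -0.09 to 0.27, limma adjusted p = 0.518). A second Ncoa1 probe set (1434515_at) read 398, 357 and 390.1 in the controls and 432, 409 and 485 in the ablated arrays, without overlap (log2 0.21, 95% interval -0.02 to 0.44, limma adjusted p = 0.254). The third (1443397_at), which was too dim to be tested, read between 29.1 and 48.2 over all arrays.

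Ncoa2 (SRC-2, or TIF2) read 622, 547 and 668 in the controls and 705, 677 and 804 in the ablated arrays by its brightest probe set (1435233_at). Each Ihh-ablated array lay above each control array, but the closest pair, 668 and 677, nearly met. The difference of 0.25 had a 95% interval of 0.01 to 0.49 and did not pass (limma adjusted p = 0.201). Probe set 1435234_at, from the same sequence record, read 122, 89.4 and 143 against 147, 134 and 175, with an overlap (log2 0.38, adjusted p = 0.252 by limma). Of the dimmer pair, 1446827_at differed by 0.14 and 1450458_at by -0.27 (limma adjusted p = 0.584 and 0.350). In the latter, control replicate 2 read 126 against 75.9 to 86.9 in the other 5 arrays.

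By brightest probe sets, Ncoa3 (SRC-3, or AIB1) was the p160 gene with a difference below 0. Its brightest probe set (1422737_at) read 309, 387 and 269 in the controls and 256, 226 and 232 in the ablated arrays, all ablated arrays below all control arrays. The difference was -0.42 (SE 0.14, 95% interval -0.74 to -0.10) and did not pass (limma adjusted p = 0.144). Control replicate 2 was the highest, and without it the difference was -0.28 (limma adjusted p = 0.239). Without control replicate 3 it was -0.54 and passed (limma adjusted p = 0.0396). The other Ncoa3 probe set (1448027_at) read 176, 177 and 189 against 169, 179.8 and 174 (log2 -0.05, limma adjusted p = 0.786), and its difference became 0.01 after quantile normalization and 0.04 with median-centred arrays.

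**Figure D4:**
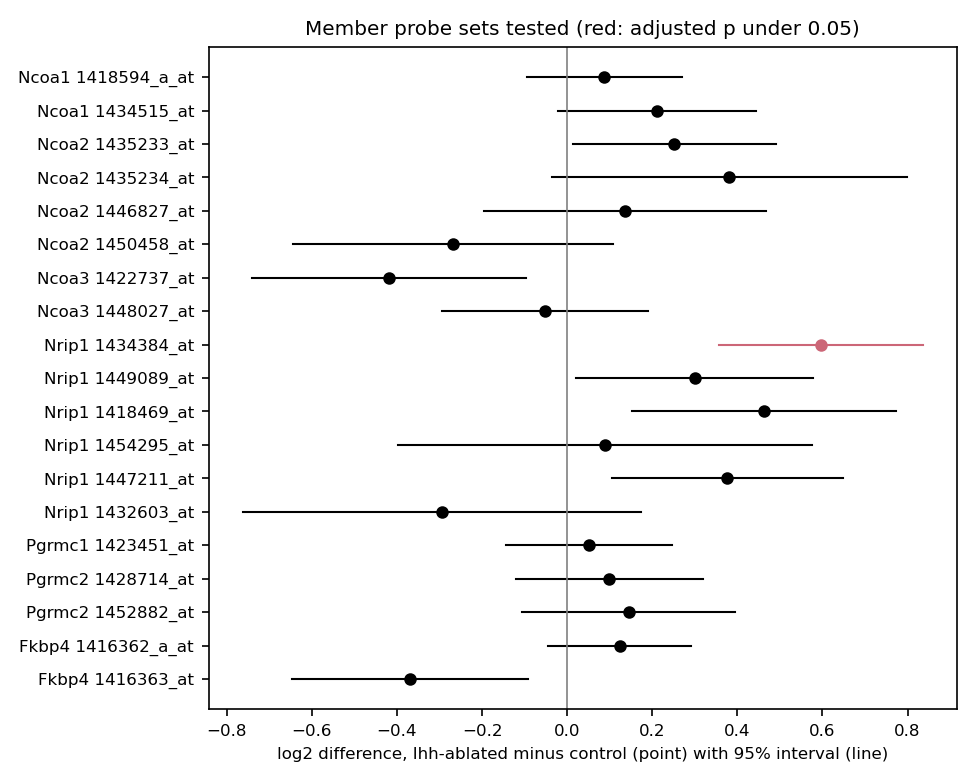
Log2 difference, Ihh-ablated minus control, for the 19 tested probe sets of the 7 genes (points) with the 95% interval of limma's moderated fit (lines). The called Nrip1 probe set, at 0.60, is in red, and the intervals of 7 of the 19 (36.8%) leave out 0 before adjustment for multiple tests, as do those of 22.9% of all tested probe sets.

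The progesterone receptor membrane components showed no difference past the spread between arrays. Pgrmc1, with a single probe set, read 2017, 1908 and 2082 in the controls and 1917, 1964 and 2367 in the ablated arrays. The difference was 0.05 (95% interval -0.14 to 0.25, limma adjusted p = 0.733) and -0.04 without Ihh-ablated replicate 3, the highest array. Pgrmc2 read 799, 749.7 and 934 in the controls and 903, 836 and 912 in the ablated arrays (1428714_at, log2 0.10, 95% interval -0.12 to 0.32, limma adjusted p = 0.542). Its dimmer probe set (1452882_at) read 264, 262 and 314 against 322, 299.9 and 303 (log2 0.14, limma adjusted p = 0.438). Control replicate 3 lay above all 3 ablated arrays in the first and among them in the second.

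Fkbp4 gave opposite readings from probe sets that the annotation ties to 1 sequence record. The brighter (1416362_a_at), whose suffix marks probes shared by several transcripts of the gene, read 1358, 1528 and 1419 in the controls and 1473, 1569 and 1646 in the ablated arrays. It overlapped between groups (log2 0.12, 95% interval -0.04 to 0.29, limma adjusted p = 0.337). The dimmer (1416363_at) read 194, 199.98 and 175 in the controls and 162, 133 and 146 in the ablated arrays, all ablated arrays lower (log2 -0.37, 95% interval -0.65 to -0.09, limma adjusted p = 0.138). The log2 ratio of the brighter over the dimmer within an array was 2.81, 2.93 and 3.02 in the controls and 3.19, 3.56 and 3.49 in ablated uteri, so it was higher in every ablated array, by 0.49. The exact two-sided permutation p was 0.1, the smallest possible here, and 0.4 adjusted over the 12 pairs. Such a ratio compares the probe sets with each other and does not show which of them differs from control. The third Fkbp4 probe set (1459808_at) read 49.5 to 61.0 over all arrays and was not tested.

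How the members varied from array to array is given as a description over 6 arrays, which include the group difference. Among the 21 pairs of the 7 brightest probe sets, Pearson correlations of log2 intensity ran from -0.91 to 0.91, and 15 were above 0 (median 0.43). For deviations from the group means 11 of the 21 were above 0 (median 0.24). Nrip1 and Ncoa2 had r = 0.91 (0.88 for deviations from the group means, 0.83 without control replicate 2). Nrip1 and Ncoa3 had r = -0.91 (-0.78 within groups, -0.85 without control replicate 2). Ncoa2 and Ncoa3 had r = -0.89 (-0.73 within groups). All probe sets of an array share its hybridisation and scaling. Of 15529 other genes the 5 with the pattern closest to Nrip1 were Phactr1 (r = 0.997), Fbxo9, Tor1aip1, Trim30a and Abhd4 (r = 0.995 for the last 4), and 905 genes had r above 0.9, so a close match is common over 6 arrays. Their log2 differences, whose direction the choice by likeness fixes, were 0.88 for Phactr1, an actin and phosphatase regulator, 0.45 for the lipase Abhd4, 0.23 for Fbxo9, 0.39 for Tor1aip1 and 0.43 for Trim30a.

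Other genes of the same machinery were read from 5 lists, each gene by its brightest probe set. Of 91 tested genes 0 were called by limma, against 2.81% of all 15530 tested genes, while 14 (15.4%) had an unadjusted p under 0.05, 7 of them higher in Ihh-ablated uteri, against 24.2% of all tested genes. Co-activators and their acetyltransferase, methyltransferase and chromatin remodelling partners had a median difference of 0.10 over 28 genes, against -0.04 for all tested genes, whose middle 50% lay between -0.21 and 0.12. The lowest p-values were those of Ncoa4, an androgen receptor co-activator and ferritin receptor (log2 0.26, limma adjusted p = 0.0944), and Pnrc1, a small nuclear receptor co-activator (0.47, 0.108). The acetyltransferase Ep300 (0.24, 0.142) and the remodelling ATPase Smarca4 (-0.18, 0.200) followed. A second Ncoa4 probe set, 1450006_at, had a difference below 0 (-0.14, limma adjusted p = 0.588). Pnrc1 passed in 2 of 18 alternative fits, 1 of them without both arrays that carried muscle or pancreas transcripts (0.65, limma adjusted p = 0.0180). A dimmer Pnrc1 probe set, 1439513_at, also had a difference below 0 (-0.24, limma adjusted p = 0.384).

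Co-repressors had a median of 0.00 over 27 tested genes. The orphan receptor Nr0b2 (SHP), which lacks a DNA-binding domain and inhibits other nuclear receptors, read 201, 241 and 167 in the controls and 154, 132 and 127 in the ablated arrays. The groups did not overlap, and the difference of -0.55 did not pass (limma adjusted p = 0.103) but did without control replicate 3 (-0.68, 0.0237). That fit was the only 1 of 18 alternatives in which Nr0b2 passed. Tbl1x, a subunit of the NCOR complexes (-0.22, limma adjusted p = 0.160), the NuRD subunit Mta3 (-0.23, 0.213) and the deacetylase Hdac7 (-0.25, 0.214) were also lower without passing. Dimmer probe sets of Tbl1x (0.24 for 1434644_at, -0.25 for 1434643_at) and Mta3 (0.09 for 1421402_at, -0.11 for 1443350_at) went both ways. Nr0b1, which was too dim, was not tested.

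Receptor chaperones had a median of -0.05 over 21 tested genes. The HSP70-binding co-chaperone St13 read 1304, 1352 and 1458 in the controls and 1489, 1641 and 1606 in the ablated arrays (log2 0.20, limma adjusted p = 0.157). Hsp90aa1, an HSP90 isoform, differed by -0.10 (limma adjusted p = 0.376). Fkbp5, a progesterone- and glucocorticoid-induced co-chaperone that competes with Fkbp4 on the receptor complex, read 659, 603 and 675 in the controls and 633, 700.1 and 619 in the ablated arrays, with a difference of 0.01 (95% interval -0.19 to 0.21, limma adjusted p = 0.948). Fkbp5 was named for that role after its values were seen. A dimmer Fkbp5 probe set, 1448231_at, was higher in every ablated array without passing (log2 0.14, limma adjusted p = 0.425). Its closest arrays, control replicate 2 at 241.46 and Ihh-ablated replicate 1 at 241.55, nearly met.

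Membrane progestin receptors and relatives of the PGRMC proteins had a median of -0.15 over 10 tested genes. The membrane progestin receptor Paqr6 differed by -0.47 (limma adjusted p = 0.158, and 0.0287 without control replicate 3), Paqr8 by -0.23 (0.369) and Paqr7 by -0.19 (0.388). In all 3, control replicate 2 was the highest array, at 155, 243 and 330.0. Of 17 alternative fits, Paqr6 passed only in the 1 without control replicate 3. The PGRMC relative Nenf (neudesin) differed by -0.11 (limma adjusted p = 0.424).

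The nuclear steroid receptors themselves had a median of 0.16 over 5 tested genes. Esr1 read 4452, 4729 and 5493 in the controls and 6049, 6073 and 6175 in the ablated arrays, without overlap (log2 0.32, limma adjusted p = 0.0547), and Pgr read 2852, 2877 and 3126 against 3463, 3334 and 3229.8, also without overlap (log2 0.18, limma adjusted p = 0.129). The brightest probe set of the glucocorticoid receptor Nr3c1 differed by 0.14 and that of the mineralocorticoid receptor Nr3c2 by 0.16 (limma adjusted p = 0.444 and 0.467). Dimmer probe sets of both Esr1 and Nr3c1 did pass. Esr1 1435663_at rose by 0.48 (limma adjusted p = 0.00738). Nr3c1 1421866_at read 91.6, 84.8 and 81.9 in the controls and 128, 147 and 179 in the ablated arrays, without overlap, and rose by 0.80 (limma adjusted p = 0.0279). Another Nr3c1 probe set, 1431378_at, was lower in every ablated array without passing (log2 -0.37, limma adjusted p = 0.248), so the Nr3c1 probe sets disagreed in direction. The called probe sets of Esr1 and Nr3c1 were the only 2 called among the 209 tested probe sets of the list genes. Of all tested probe sets 2.14% were called, 1.03% of them as higher, so this count does not stand above the background.

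**Figure D5:**
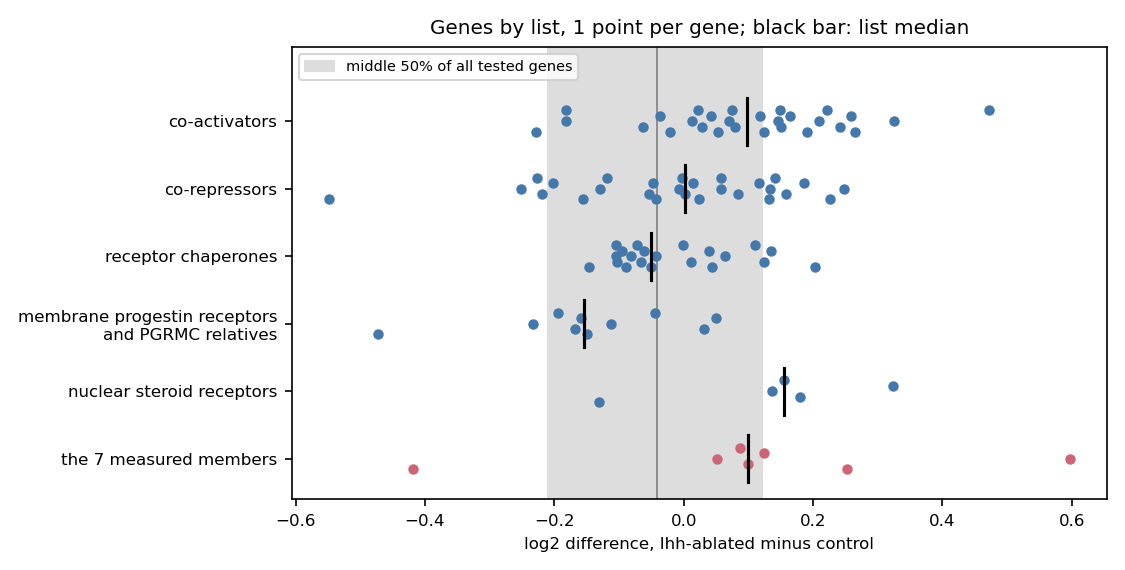
Log2 difference, Ihh-ablated minus control, of each tested gene in 5 lists and of the 7 measured genes (red), 1 point per gene, with list medians as black bars. The grey band holds the middle 50% of all 15530 tested genes (-0.21 to 0.12, median line at -0.04), and Nrip1 is the rightmost point at 0.60.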

How the data were processed

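Uterine RNA of 3 control and 3 Ihh-ablated samples was measured on 6 arrays, grouped by sample titles. The authors deposited a linear intensity for each probe set and array. Their software, background correction and normalization, and detection calls, are not stated in the labels, so dim probe sets have no stated background. The number of arrays limits the precision. The 64 control probe sets were left out, intensities under 16 were set to 16 (1821 values), log2 was taken, and the lowest 25% by mean log2 (under 6.16) were left out. limma 3.58.1 in R 4.3.3 was run with an intensity trend, on 4 residual degrees of freedom and 5.25 prior ones, and Benjamini-Hochberg adjustment, after a test on simulated data. Genes were named from the platform annotation, and promoters come from RefSeq (GRCm38.p6). Named were all members, Ihh, Gli1, Ptch1, list genes past the test and up to 4 of lowest p per list, and the 5 genes most like Nrip1. Members and lists were chosen with earlier results of these data known. Alternatives changed the normalization, floor, filter, variance model, array weights, block, arrays, covariate, threshold and probe set rule. By correlation, same-numbered samples did not deviate together (-0.15, -0.04 and 0.25 for numbers 1 to 3), so replicate numbers were not taken as pairs in the main fit. Adipocyte markers did rise with the replicate number in both groups. Their mean log2 was 8.0, 9.3 and 9.9 in the controls and 9.6, 10.2 and 10.9 in the ablated arrays. The replicate block, fitted as an alternative, gave more calls, and whether the numbers mark pairs was not tested further. Python 3.11.15 with matplotlib 3.10.9 drew the figures.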

Additional observations from a re-analysis of the deposited data

How the results depend on the processing

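Many alternatives could not change the direction of the brightest Nrip1 probe set. Its groups do not overlap, so leaving out an array cannot reverse it. Changes of filter, variance prior, block or threshold keep the main difference, and the fold threshold reuses the main fit. With that limit, the rise kept its direction in all 19 alternatives and its call in 11. It was lost with median-centred arrays (log2 0.69, limma adjusted p = 0.0570), without an intensity trend (0.60, 0.0686), with the adipocyte covariate (0.54, 0.315) and in 5 of the 6 fits that leave out 1 array, where the difference ranged from 0.50 to 0.69. Median-centring moved the median of all genes by 0.09. The number of member probe sets called was 0 with median-centred arrays, without a trend and with the covariate, and 0 to 2 with 1 array left out. The list genes called numbered 1 with robust eBayes, 1 with array weights and 1 with the mean of a gene's probe sets (Esr1 each time), 2 with the replicate block (Esr1 and Pnrc1), 2 without both arrays that carried muscle or pancreas transcripts, and 0 to 4 with 1 array left out. All probe sets called numbered 374 without a trend, 1411 with array weights, 1562 with the replicate block, 1915 without both of those arrays, 23 with the covariate and 156 to 3569 with 1 array left out. The replicate block left the Nrip1 difference at 0.60 (adjusted p = 0.00636). The covariate leaves 3 residual degrees of freedom in place of 4, and the cause of the other changes was not tested.

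Differences near 0 changed sign for Ncoa3 1448027_at (0.0148 after quantile normalization, 0.0402 with median-centred arrays), Nrip1 1454295_at (-0.11 with array weights, and -0.11 to 0.28 with 1 array left out), Ncoa2 1446827_at (-0.0011 to 0.26 with 1 array left out) and Pgrmc1 (-0.0390 with the covariate, and -0.0448 to 0.11 with 1 array left out).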
